A study of Capra hircus with 21 samples.

Results

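The genes described here encode the machinery that licenses, unwinds and copies DNA, followed through goat (Capra hircus) development from the oocyte to the blastocyst. They were every row of the deposited gene table whose symbol names an MCM, ORC, RFC, GINS or RPA subunit, a numbered subunit of DNA polymerase alpha, delta or epsilon, or PRIM1, PRIM2, PCNA, GMNN, CDT1, CDC6, CDC7, CDC45, FEN1 or LIG1. The rule found 40 of 19040 rows. No measured value entered it, but it was chosen with earlier results of these data known. RNA was sequenced from oocytes matured in the animal and from embryos that developed there, collected as 2-cell, 4-cell, 8-cell and 16-cell embryos, as morulae and as blastocysts. Each of the 7 stages had 3 libraries, lettered A, B and C. For morula A the labels record that the second read file was damaged. No treatment or genotype was varied. Whether the 3 libraries of a stage stem from different animals is not stated in the labels, so p-values measure only the spread between these libraries, which may be technical.

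A chromosome is prepared for copying before S phase begins. The origin recognition complex (ORC) binds origins, CDC6 and CDT1 load the ring-shaped MCM helicase there, and geminin (GMNN) binds CDT1 so that origins are not loaded again. The kinase CDC7, with CDC45, the GINS complex and MCM10, turns the loaded ring into an active helicase. Polymerase alpha with primase starts each strand, and polymerases delta and epsilon extend it on the sliding clamp PCNA, which the RFC complex places on DNA. RPA covers the single strands, and FEN1 and LIG1 finish Okazaki fragments. Early embryos divide on RNA and protein stored in the oocyte before their own genome takes over transcription.

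Levels are given as RPM, a gene's reads scaled to the library's total reads, obtained by multiplying the deposited RPKM by the gene's span from start to stop, introns included. Exon lengths were not used here, so levels are compared between stages and not between genes. Differences between genes within a library are given only for how they changed between stages. Between 23.8 M reads (morula B) and 66.2 M reads (2-cell C) underlay a library, and 3 reads of a gene amounted to 0.0453 to 0.126 RPM. A count of 0 allows a level up to that amount, counting error alone considered. A gene was called higher or lower when its limma adjusted p was below 0.05 and its log2 fold change was at least 1 in size. Fold changes are on the log2(RPM + 1) scale, which understates the change of low genes.

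The labels of oocytes and blastocysts were checked against GDF9, an oocyte growth factor, and KRT8, a keratin of the outer embryonic epithelium. GDF9 stood at 157 ± 21.8 RPM in oocytes and 0.106 ± 0.0311 RPM in blastocysts (mean ± SD, n = 3 here and below), while KRT8 had no read in oocytes and reached 957 ± 329 RPM in blastocysts. GDF9 was not highest in oocytes, as it read 442, 516 and 467 RPM at the 8-cell stage and 17.5, 24.1 and 143 RPM at the 16-cell stage. GATA3, another of 11 stage markers, read 12.9, 14 and 9.96 RPM in oocytes. It read 29.4, 54.8 and 18.6 RPM in blastocysts and was not called between these 2 stages. On the first principal component of all tested genes, 16-cell C (-3.65) and morula C (38.9) lay nearer to the preceding stage than their mates (57.2 and 61.2 for 16-cell, 127 and 131 for morula). Mitochondrial transcripts made up 0.796 to 4.72% of gene reads up to the 8-cell stage and 30.8 to 45.8% in blastocysts. In bulk samples fewer cells of a type and less RNA per cell cannot be told apart. Markers of cumulus and granulosa cells summed to 15.8 to 58.3 RPM from oocyte to 8-cell (9 genes found, led by STAR, with FSHR, LHCGR and AMH at or under 3 reads), to 21.3 to 47.5 RPM at the 16-cell stage and 1.26 to 51.6 RPM in morulae (led by TNFAIP6), and to 1.17 to 3.6 RPM in blastocysts. Those of oviduct and uterine epithelium ran from 3.05 to 10.3 RPM up to the 16-cell stage (6 genes found), 5.48 to 20.8 RPM in morulae and 10.8 to 46.7 RPM in blastocysts, led there by EPCAM, which embryonic epithelium also expresses, with PAX8 and ESR1 at or under 3 reads up to the morula. Blood and immune markers never summed to more than 1.84 RPM. Their part in the results was not tested.

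The members together took 5395 ± 1763 RPM in oocytes, 4262 ± 280.5 RPM at the 8-cell stage, 3563 ± 819 RPM in 16-cell embryos, then 2195 ± 877 RPM in morulae and finally 649 ± 469 RPM in blastocysts. PCNA alone supplied 50.7 to 73.1% of this sum in oocytes, 38.5 to 44.7% in 8-cell libraries, 58.1 to 68.5% in 16-cell libraries and 7.28 to 35.9% in blastocysts. Without PCNA the sum was 1972 ± 120 RPM in oocytes, 2505 ± 35.2 RPM at the 8-cell stage, 1320 ± 222 RPM at the 16-cell stage and 478 ± 250 RPM in blastocysts. The stage with the highest mean was the 2-cell stage for 16 members, the 8-cell stage for 12, the oocyte for 4, the morula for 4, the 16-cell stage for 2 and the blastocyst for 2. No member peaked at the 4-cell stage, where 6.95% of all tested genes did. Of all tested genes, 19.8% peaked as 2-cell embryos, 23.2% as 8-cell embryos and 7.73% as oocytes. The morula was the peak for 16.7% of all tested genes, the blastocyst for 14.55% and the 16-cell stage for 11%. Of the 40 members, 37 passed the minimum of 1 RPM in 3 libraries and were tested. CDT1, POLD1 and FEN1 did not pass. Without these genes 14 members peaked at the 2-cell stage and 3 at the morula, with the other peak counts unchanged.

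**Figure D1:**
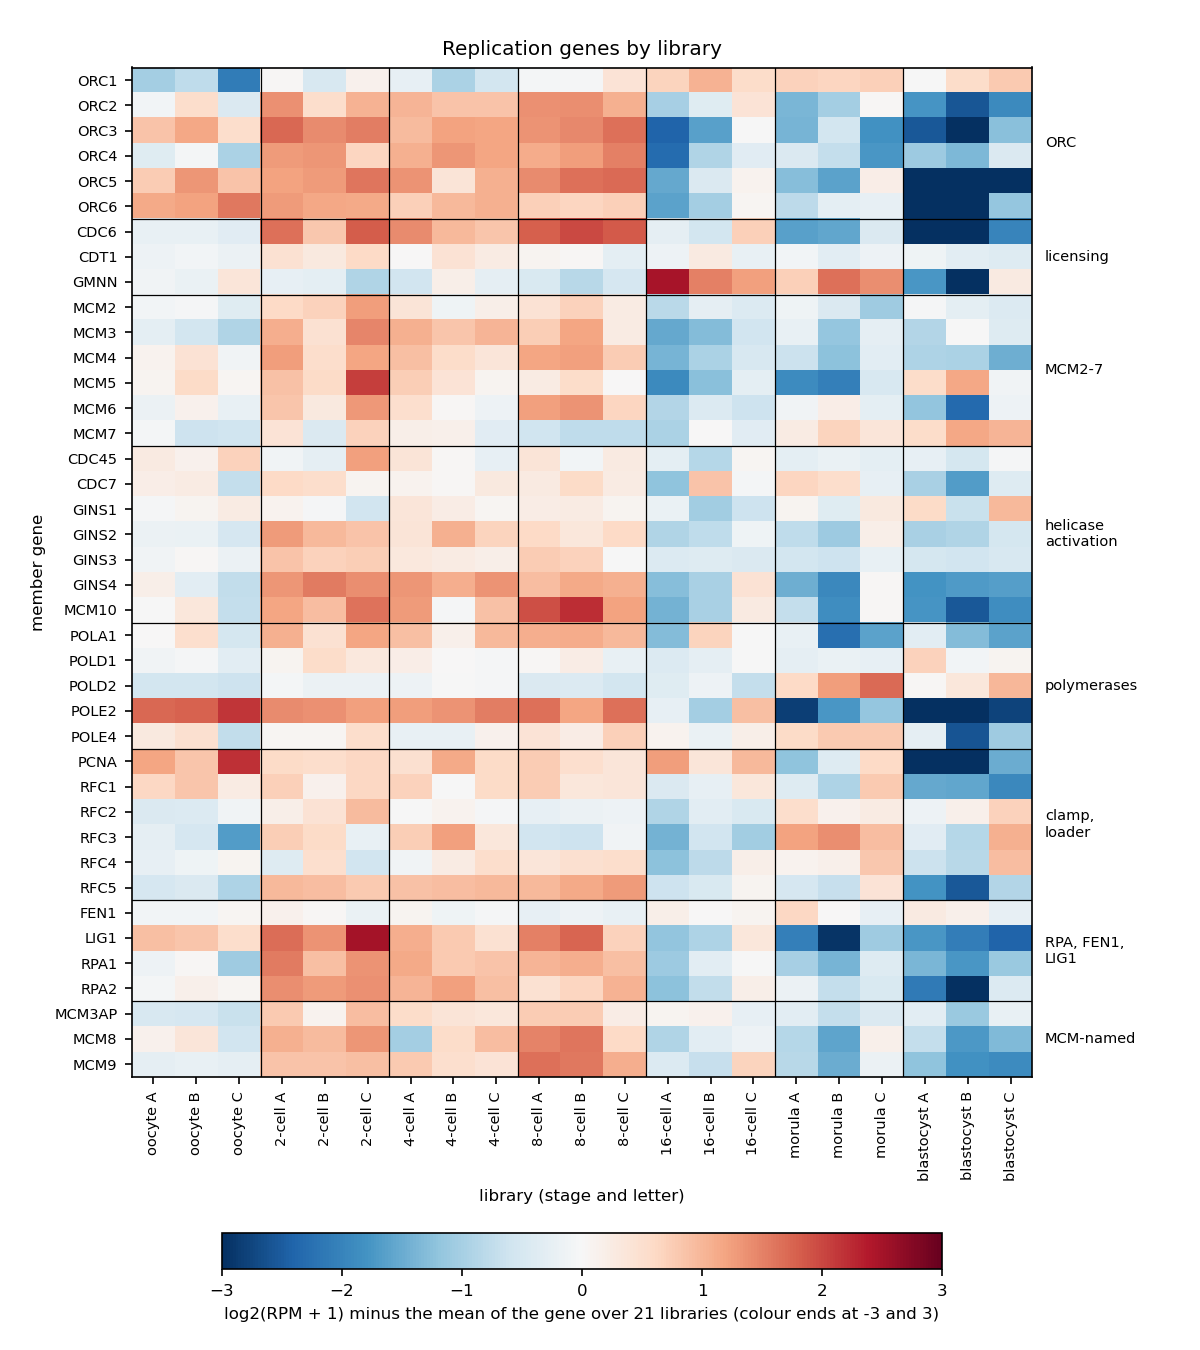
Each row is a member and each column a library, grouped by stage. Colour gives log2(RPM + 1) minus the gene's mean over the 21 libraries, red above and blue below, and the colour scale ends at -3 and 3. Most rows turn from red to blue between the 8-cell and 16-cell libraries, while GMNN turns red there, and 16-cell C is paler than 16-cell A and B.

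Of the 6 origin recognition subunits, 5 fell at the 8-cell to 16-cell step, where 30.7% of all tested genes fell, and ORC1 was not called. ORC5, a subunit of the complex, stood at 427, 504 and 516 RPM in 8-cell A, B and C, at 54.4, 117 and 173 RPM at the 16-cell stage, at 64.8, 52 and 184 RPM in morulae and at 13.3, 13.1 and 18.8 RPM in blastocysts. Its 16-cell libraries all lay below its 8-cell libraries, and its blastocysts all lay below its morulae, as in 43.8% and 31.2% of all tested genes. The first of these falls had a log2 fold change of -2.21 (SE 0.46, adjusted p = 0.000555) and the second one of -2.44 (SE 0.46, adjusted p = 0.000224). The second was not called on deposited RPKM. ORC3 held 133, 141 and 164 RPM at the 8-cell stage and 8.79, 15.9 and 50.4 RPM at the 16-cell stage (-2.84, adjusted p = 0.000186). Part of ORC3's span, 556 bases, overlaps RARS2 on the other strand, which was more abundant, and strandedness is not given, so its reads may include some of RARS2. ORC4 went from 88.6, 96.3 and 117 RPM to 7.25, 20.9 and 31.4 RPM (-2.49, adjusted p = 0.000187) and ORC2 from 48, 48.6 and 38.9 RPM to 8.56, 13.8 and 24.3 RPM (-1.59, adjusted p = 0.00382). ORC6, the smallest subunit, went from 122, 115 and 122 RPM to 23.6, 35.6 and 77 RPM (-1.55, adjusted p = 0.0176), a call that was lost without 16-cell A or B (adjusted p up to 0.106) and with median-ratio scaling. ORC6 fell again from morulae, at 42.4, 59.6 and 61.5 RPM, to blastocysts, at 8.28, 2.9 and 32.6 RPM (-2.36, adjusted p = 0.00116), and that call held in all the alternatives. ORC2 also fell there (-1.30, adjusted p = 0.0178), a call lost without morula C or blastocyst B (adjusted p up to 0.106) and with median-ratio scaling, quantile normalization and 5 other settings.

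ORC1, the subunit whose protein level rises and falls with the cell cycle in many cells, was low in oocytes and had its highest mean at the 16-cell stage. It read 3.22, 4.07 and 0.998 RPM in oocytes, 7.77, 5.175 and 8.38 RPM at the 2-cell stage, 7.27, 7.45 and 10.3 RPM at the 8-cell stage, 12.6, 16.6 and 11.6 RPM at the 16-cell stage, 12.9, 12.5 and 13 RPM in morulae and 7.53, 11.7 and 13.8 RPM in blastocysts. With the authors' scaling its only called rise between neighbouring stages was from oocyte to 2-cell (1.19, adjusted p = 0.028). At that step 14% of all tested genes were called higher. The call was lost in 9 of the alternatives, among them those without oocyte C, 2-cell A or 2-cell C. Every 16-cell library was above every 8-cell library, as in 20.9% of all tested genes. That step had a log2 fold change of 0.64 (95% interval -0.12 to 1.40, adjusted p = 0.142) and was not called with the authors' scaling. It was called with median-ratio scaling and with quantile normalization. From oocyte to blastocyst ORC1 rose by 1.74 (SE 0.37, adjusted p = 0.000273). The log2 distance between ORC1 and the mean of ORC2 to ORC6 within a library was -3.97 to -3.60 at the 8-cell stage, -2.17 to -0.236 at the 16-cell stage and -0.332 to 0.907 in blastocysts. This comparison between subunits was chosen after their values were seen and is given as a description.

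Licensing factors split in the same interval. CDC6, which loads the helicase, read 30.6, 30.2 and 28 RPM in oocytes, 114, 63.5 and 127 RPM at the 2-cell stage, 127, 144 and 131 RPM at the 8-cell stage, 29.6, 23.9 and 59.4 RPM at the 16-cell stage, 10.8, 11.4 and 26 RPM in morulae and 3.14, 2.23 and 8.29 RPM in blastocysts. It was higher from the 2-cell to the 8-cell stage than in oocytes and lowest in the blastocyst. Its libraries did not overlap between oocyte and 2-cell, 8-cell and 16-cell, or morula and blastocyst. Of all tested genes, 46% lay wholly higher at the first of these steps, and 43.8% and 31.2% wholly lower at the others. The rise to the 2-cell stage was 1.69 (adjusted p = 0.0111), and its call was lost without oocyte C or 2-cell C (adjusted p up to 0.0644) and with median-ratio scaling. The fall at the 8-cell to 16-cell step was -1.91 (SE 0.44, adjusted p = 0.00133) and that from morula to blastocyst -1.66 (adjusted p = 0.00461). The last of these was not called on deposited RPKM or with median-ratio scaling, quantile normalization or array weights.

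GMNN, which restrains licensing, was the only member called higher at the 8-cell to 16-cell step with the authors' scaling. It read 128, 120 and 178 RPM in oocytes, 100, 77.5 and 96.2 RPM at the 8-cell stage, 770, 393 and 323 RPM at the 16-cell stage, 225, 432 and 362 RPM in morulae and 40.3, 10.4 and 166 RPM in blastocysts. All 16-cell and morula libraries lay above all libraries of the earlier stages, and the blastocysts were spread over a wide range. Between the 8-cell and 16-cell stages 20.9% of all tested genes lay wholly higher. The rise was 2.33 (SE 0.61, adjusted p = 0.00327) and the later fall from morula to blastocyst -2.94 (SE 0.61, adjusted p = 0.000558), and both calls held in all the alternative settings. In the table GMNN lies on chromosome 23 at 16953895 to 16962062, on the plus strand, and no build is named for the table. Within a library GMNN stood 1.96 to 2.63 log2 units above CDC6 in oocytes, -0.887 to -0.331 from it at the 8-cell stage and 2.42 to 4.66 above it at the 16-cell stage. The 16-cell range overlaps that of oocytes. This description was chosen after the values were seen. CDT1, the target of geminin, did not pass the filter. It had 47 to 80 reads in 2-cell libraries (0.991 ± 0.216 RPM) and 4 to 15 reads in blastocysts (0.207 ± 0.112 RPM).

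**Figure D2:**
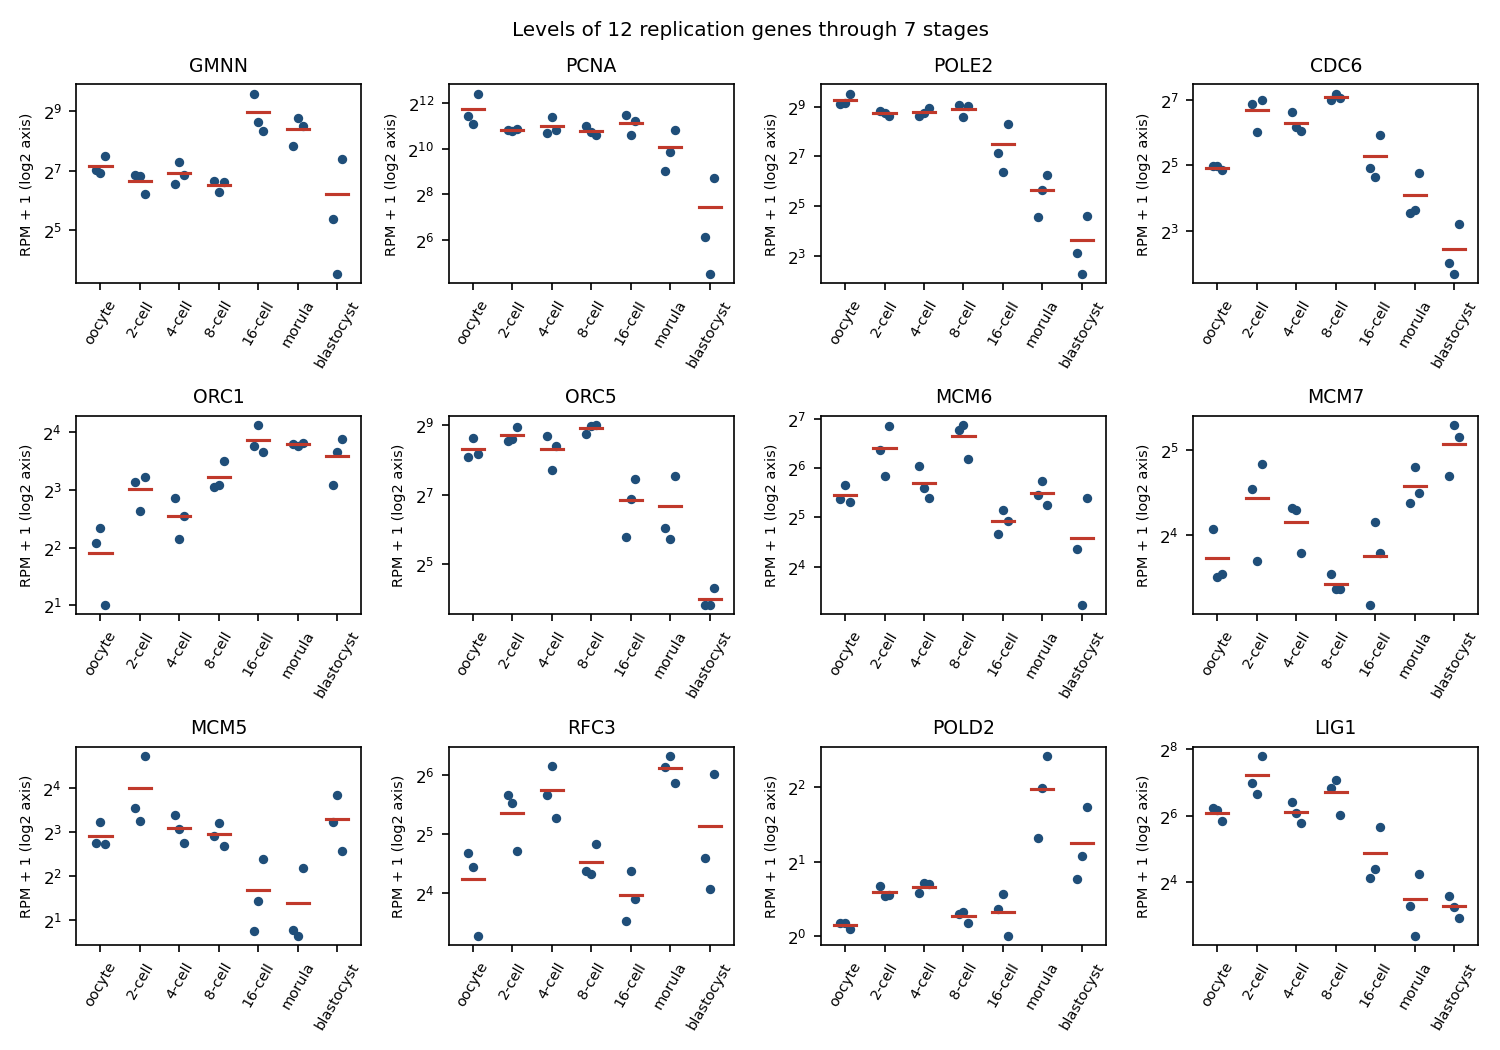
Each panel shows a member in the 7 stages, with a point for each library and a red bar at the mean of the 3 libraries. The vertical axis is RPM + 1 on a log2 axis. POLE2, CDC6 and ORC5 step down at the 16-cell stage and again in blastocysts, GMNN steps up at the 16-cell stage, and MCM7 is highest in blastocysts.

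The MCM2 to MCM7 genes encode the subunits of the replicative helicase, which act together as a ring. They did not move as a unit. MCM4 read 7.88, 8.26 and 5.73 RPM at the 8-cell stage and 0.508, 1.03 and 1.81 RPM at the 16-cell stage, with no overlap (log2 fold change -2.00, SE 0.33, adjusted p = 5.74e-05). At this step 43.8% of all tested genes lay wholly lower. MCM3 went from 23.1, 31.8 and 16.2 RPM to 3.96, 4.88 and 8.63 RPM (-1.86, adjusted p = 0.000652) and MCM6 from 109, 118 and 72 RPM to 24.3, 34.5 and 29.6 RPM (-1.70, adjusted p = 0.0029). MCM5 went from 6.5, 8.26 and 5.37 RPM to 0.684, 1.69 and 4.21 RPM (-1.41, adjusted p = 0.0162), but was not called without 8-cell B (adjusted p up to 0.111) or 16-cell A, nor with any of the other scalings tried. MCM2 was low throughout, at 1.92 ± 0.463 RPM and then 0.502 ± 0.276 RPM, and its change of -0.96 (adjusted p = 0.00476) did not reach the minimum size. It passed the filter through no 16-cell library, so this change is not used as support.

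MCM7 read 10.6, 9.28 and 9.3 RPM at the 8-cell stage, 8.03, 16.7 and 12.8 RPM at the 16-cell stage, 19.8, 26.9 and 21.6 RPM in morulae and 24.9, 38.2 and 34.6 RPM in blastocysts. All blastocysts lay above all oocytes (15.8, 10.4 and 10.7 RPM), as in 25.2% of all tested genes. This rise was called (1.34, SE 0.37, adjusted p = 0.00312), though not on deposited RPKM. The span of MCM7 on chromosome 25, 37223549 to 37231438, overlaps COPS6 on the other strand by 143 bases and TAF6 on the same strand by 580 bases. MCM5 recovered at the last step, from 0.713, 0.541 and 3.53 RPM in morulae to 8.33, 13.3 and 4.91 RPM in blastocysts (2.01, SE 0.48, adjusted p = 0.00183). MCM6 fell again at that step, from 42.6, 52.8 and 37.3 RPM to 19.5, 8.27 and 41 RPM (-1.16, adjusted p = 0.038). That call rested on single libraries, since it was lost without morula A or B or blastocyst A or B (adjusted p up to 0.262), and with every scaling other than the authors'. Within a library MCM7 stood -0.662 to -0.0423 log2 units from the mean of MCM2 to MCM6 at the 8-cell stage and 2.17 to 2.76 above it in blastocysts, a description chosen after the values were seen. Between oocytes and blastocysts no change was called in MCM3 (0.16, 95% interval -0.66 to 0.98), MCM5 (0.31, -0.68 to 1.29) or MCM2 (-0.08, -0.63 to 0.47). The interval of MCM5 reaches past the minimum size, and that of MCM3 comes close to it.

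**Figure D3:**
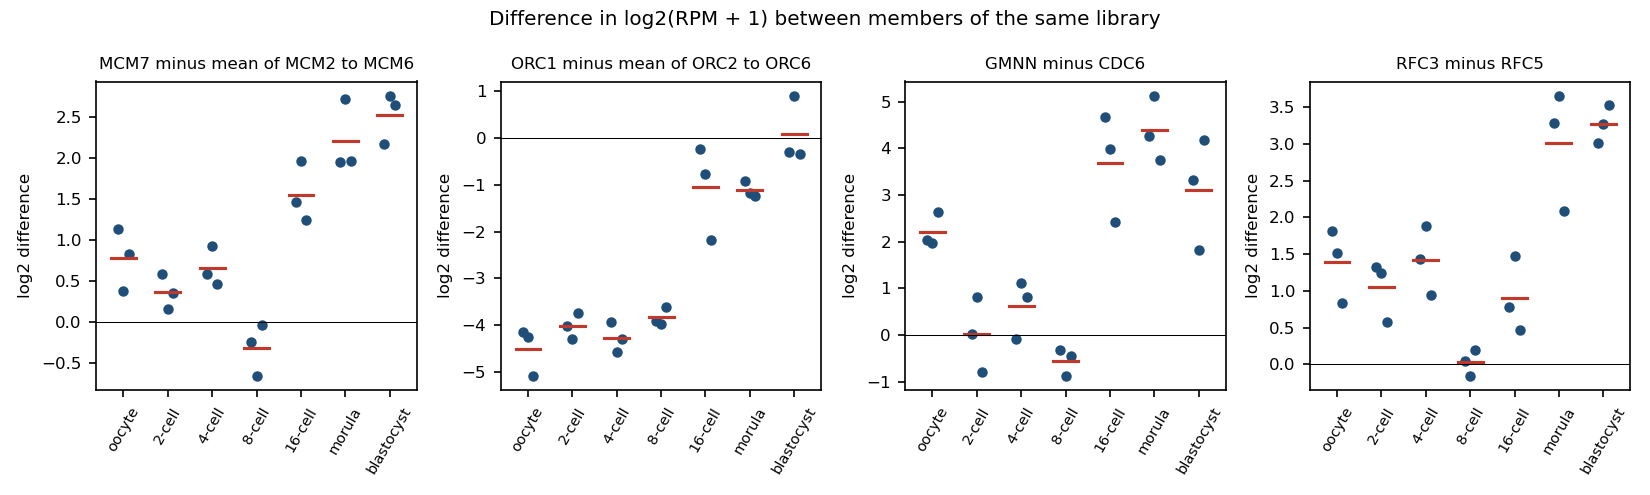
Each panel gives, for every library, the difference in log2(RPM + 1) between a member and the mean of the named others, by stage, with a red bar at the mean of 3 libraries. MCM7 relative to MCM2 to MCM6 and ORC1 relative to ORC2 to ORC6 are higher in all libraries from the 16-cell stage on than in all libraries before it.

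Among the helicase activators, MCM10 read 199, 242 and 121 RPM at the 8-cell stage and 18.7, 25.8 and 62.1 RPM at the 16-cell stage (log2 fold change -2.49, SE 0.51, adjusted p = 0.000459). These libraries did not overlap, and 43.8% of all tested genes lay wholly lower at this step. GINS4 fell from 6.25, 7.47 and 6.96 RPM to 0.586, 0.956 and 4.16 RPM (-1.64, adjusted p = 0.00304) and GINS2 from 2.23, 1.71 and 2.25 RPM to 0.137, 0.251 and 0.954 RPM (-1.12, adjusted p = 0.00352). GINS2 passed the filter through 2-cell, 4-cell and 8-cell libraries and morula C, and through no oocyte or 16-cell library. Its fall here is therefore not used as support. The call of GINS2 was lost without 16-cell A, where its fold change fell below the minimum size (adjusted p = 0.0252 at most when a library was left out), with a pseudocount of 5 and with each other scaling. GINS1, of the same complex, went from 50.1, 50.8 and 45.4 RPM to 37.2, 20.4 and 27.4 RPM (-0.80, 95% interval -1.61 to 0.01) and was not called. From oocyte to blastocyst GINS1 was not called (0.19, 95% interval -0.62 to 1) and ended at 58.2 ± 29.2 RPM. GINS4 fell over that span (-1.42, adjusted p = 0.00563, not called with a pseudocount of 5) and ended at 0.171 ± 0.0584 RPM. GINS3 passed the filter in 2-cell and 8-cell libraries alone, so its fall by 0.90 was not used as support. CDC45 ranged from 0.754 to 6.41 RPM over all libraries and was called in no comparison. CDC7 held 57.6 ± 7.68 RPM at the 8-cell, 47.4 ± 31.6 at the 16-cell stage and 56.9 ± 17.2 in morulae. It fell to 22.1, 13.1 and 33.3 RPM in blastocysts from 69.8, 63.7 and 37.3 RPM (-1.32, adjusted p = 0.0245), a call lost without morula A or B or blastocyst A or B (adjusted p up to 0.124) and with each other scaling.

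From oocyte to blastocyst POLE2 had the largest fall of the members. POLE2, an accessory subunit of polymerase epsilon, read 557, 571 and 736 RPM in oocytes, 529, 381 and 524 RPM at the 8-cell stage, 140, 81.8 and 314 RPM at the 16-cell stage, 22.8, 49 and 74.7 RPM in morulae and 7.62, 3.77 and 23.4 RPM in blastocysts. Each step from the 8-cell stage on was called lower, by -1.62 (adjusted p = 0.0134), -1.78 (adjusted p = 0.0209) and -2.16 (adjusted p = 0.0023). From the 8-cell stage on, libraries of neighbouring stages did not overlap except morula A and blastocyst C. Of all tested genes 43.8% lay wholly lower at the 8-cell to 16-cell step and 8.49% from 16-cell to morula. The first step was lost without 16-cell B (adjusted p = 0.0966) and with median-ratio scaling, the second without 16-cell C or morula A (adjusted p up to 0.152) and the third on deposited RPKM and with array weights. From oocyte to blastocyst the log2 fold change was -5.95 (SE 0.53, adjusted p = 3.37e-09), and this call held in all the alternatives. POLE2 lies on chromosome 10 at 60333199 to 60362690 in the table. POLE4, a histone-fold subunit of the same polymerase, read 12.3, 10.7 and 15.3 RPM at the 8-cell stage and 13.8, 16.2 and 16.1 RPM in morulae, and then fell to 7.33, 0.667 and 3.77 RPM (-2.01, adjusted p = 0.000994). POLA1, the catalytic subunit of polymerase alpha, went from 32.7 ± 1.61 RPM at the 8-cell stage to 5.63, 24.9 and 15 RPM at the 16-cell stage (-1.27, adjusted p = 0.0421). That call was lost without oocyte A, each of the 8-cell libraries, 16-cell A or 16-cell C (adjusted p up to 0.269) and with every other scaling.

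POLD2, an accessory subunit of polymerase delta, was the reverse case. It had 7 to 13 reads in 8-cell libraries and 15, 19 and 0 reads at the 16-cell stage, then 83, 70 and 270 reads in morulae, which is 1.5, 2.96 and 4.35 RPM. The rise was 1.60 (SE 0.25, adjusted p = 0.000202). It passed the filter through morula and blastocyst libraries alone, so it had to be higher there if anywhere, and this rise is not used as support. POLD1, the catalytic subunit, had at most 58 reads in any library and was not tested.

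PCNA, the sliding clamp, read 2705, 2138 and 5426 RPM in oocytes, 2041, 1687 and 1542 RPM at the 8-cell stage, 2852, 1527 and 2349 RPM at the 16-cell stage, 519, 908 and 1814 RPM in morulae and 69.2, 21.7 and 424 RPM in blastocysts. It was not called at the 8-cell to 16-cell step, where its libraries overlapped (0.32, 95% interval -1.11 to 1.74, adjusted p = 0.713). Its fall came from morula to blastocyst (-3.44, SE 0.69, adjusted p = 0.000415), where every blastocyst lay below every morula, and from oocyte to blastocyst it fell by 5.17 on the log2 scale (adjusted p = 1.05e-06). Both calls held in all the alternatives. Blastocysts lay wholly below morulae in 31.2% of all tested genes. Mammalian genomes carry processed copies of PCNA, and how reads matching several places were handled is not given, so its absolute level is uncertain.

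Of the clamp loader subunits, RFC5 fell at the 8-cell to 16-cell step, RFC3 rose at the next, and RFC1, RFC3 and RFC5 fell from morula to blastocyst. RFC1, the large subunit, kept 89.4 to 121 RPM at the 8-cell stage, 52.4, 59.8 and 90 RPM at the 16-cell stage and 53.8, 36.9 and 122 RPM in morulae, then fell to 23.9, 23.5 and 17.7 RPM in blastocysts (-1.50, adjusted p = 0.00517, not called on deposited RPKM, per nuclear gene reads, or with median-ratio scaling, quantile normalization or array weights). RFC5 fell at the 8-cell to 16-cell step, from 19, 21.3 and 23.7 RPM to 5.67, 6.44 and 9.72 RPM (-1.46, adjusted p = 0.00399, not called on deposited RPKM or with median-ratio scaling). It fell again from morula to blastocyst (-1.48, adjusted p = 0.00444). That call was lost on deposited RPKM, with a pseudocount of 5, per nuclear gene reads, and with median-ratio scaling, quantile normalization or array weights. RFC3 had its rise at the next step, from 10.4, 19.6 and 13.8 RPM at the 16-cell stage to 69.4, 79.2 and 57 RPM in morulae (2.18, SE 0.47, adjusted p = 0.0027), with no overlap and a call that held in all the alternatives. From 16-cell to morula 13.8% of all tested genes lay wholly higher. RFC3 in blastocysts was 23, 15.8 and 63.3 RPM, and its fall there (-1.22, adjusted p = 0.0425) was lost in 15 of the alternatives, among them those without 4-cell A, 8-cell A or B, morula A or B, or blastocyst A or B (adjusted p up to 0.215). RFC4 ranged from 17.5 to 82.5 RPM and was called in no comparison, with its nearest miss at the 8-cell to 16-cell step (-1.07, adjusted p = 0.0505). RFC2 changed by 0.86 from 16-cell to morula (adjusted p = 0.0212), which was under the minimum size. It passed the filter through no 16-cell library, so this change is not used as support.

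All 3 tested genes of the Okazaki fragment and single-strand group fell at the 8-cell to 16-cell step, against 30.7% of all tested genes. LIG1, the ligase, read 113, 133 and 63.5 RPM at the 8-cell stage, 16.4, 19.8 and 49.1 RPM at the 16-cell stage, 8.62, 4.17 and 18.1 RPM in morulae and 11, 8.53 and 6.58 RPM in blastocysts. The first step was -1.92 (SE 0.48, adjusted p = 0.00227) and held in all the alternatives. The second was -1.42 (adjusted p = 0.0397), with overlapping libraries, and was lost without 16-cell C, morula A or morula B (adjusted p up to 0.223). It was also lost on deposited RPKM, with a pseudocount of 5 and with no filter. RPA1, the large RPA subunit, fell from 6.77, 7.12 and 6.16 RPM to 0.801, 2.06 and 2.77 RPM at the 8-cell to 16-cell step (-1.48, adjusted p = 0.00158). RPA2 went from 35.9, 41.3 and 54.6 RPM to 10.4, 15.3 and 29.2 RPM (-1.32, adjusted p = 0.0426), a call lost without oocyte A, each of the 8-cell libraries, or 16-cell A or B (adjusted p up to 0.18) and with each other scaling. From morula to blastocyst RPA2 fell by 1.65 on the log2 scale (adjusted p = 0.0177). That call was lost without morula A or blastocyst B (adjusted p up to 0.179), on deposited RPKM and per nuclear gene reads. It was also lost with median-ratio scaling, quantile normalization and array weights. FEN1, the flap nuclease, had 0 to 47 reads in a library and was left out by the filter. The 3 genes that carry an MCM name but are not part of the replicative ring behaved variously. The repair helicase genes MCM8 (-1.69, adjusted p = 0.00694) and MCM9 (-1.58, adjusted p = 0.00121) fell at this step, and the mRNA export gene MCM3AP (-0.60, adjusted p = 0.111) was not called. MCM9 shares 12950 bases with the more abundant ASF1A on the other strand.

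Over the whole set, 21 of 37 members tested were lower and 1 was higher at the 8-cell to 16-cell step, against 30.7% and 15.4% of all 10384 genes tested (46.1% in either direction). GINS2 is among the 21 but passed the filter through no 16-cell library, so it adds nothing to this count as support. The members' median log2 fold change was -1.32 and that of all tested genes -0.52. With median-ratio scaling, which put the median gene at -0.17, 14 of the same 21 members were called lower, and with quantile normalization 17 were. Both also called ORC1 higher beside GMNN. On deposited RPKM, where 22 members were tested, 8 of the 21 were called lower. Without 16-cell C and morula C all 21 remained called and MCM2 and RFC4 were added. MCM2 passed the filter through no 16-cell library, so its addition is not used as support. In 19 of the 21 members 16-cell C was the highest of its stage.

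**Figure D4:**
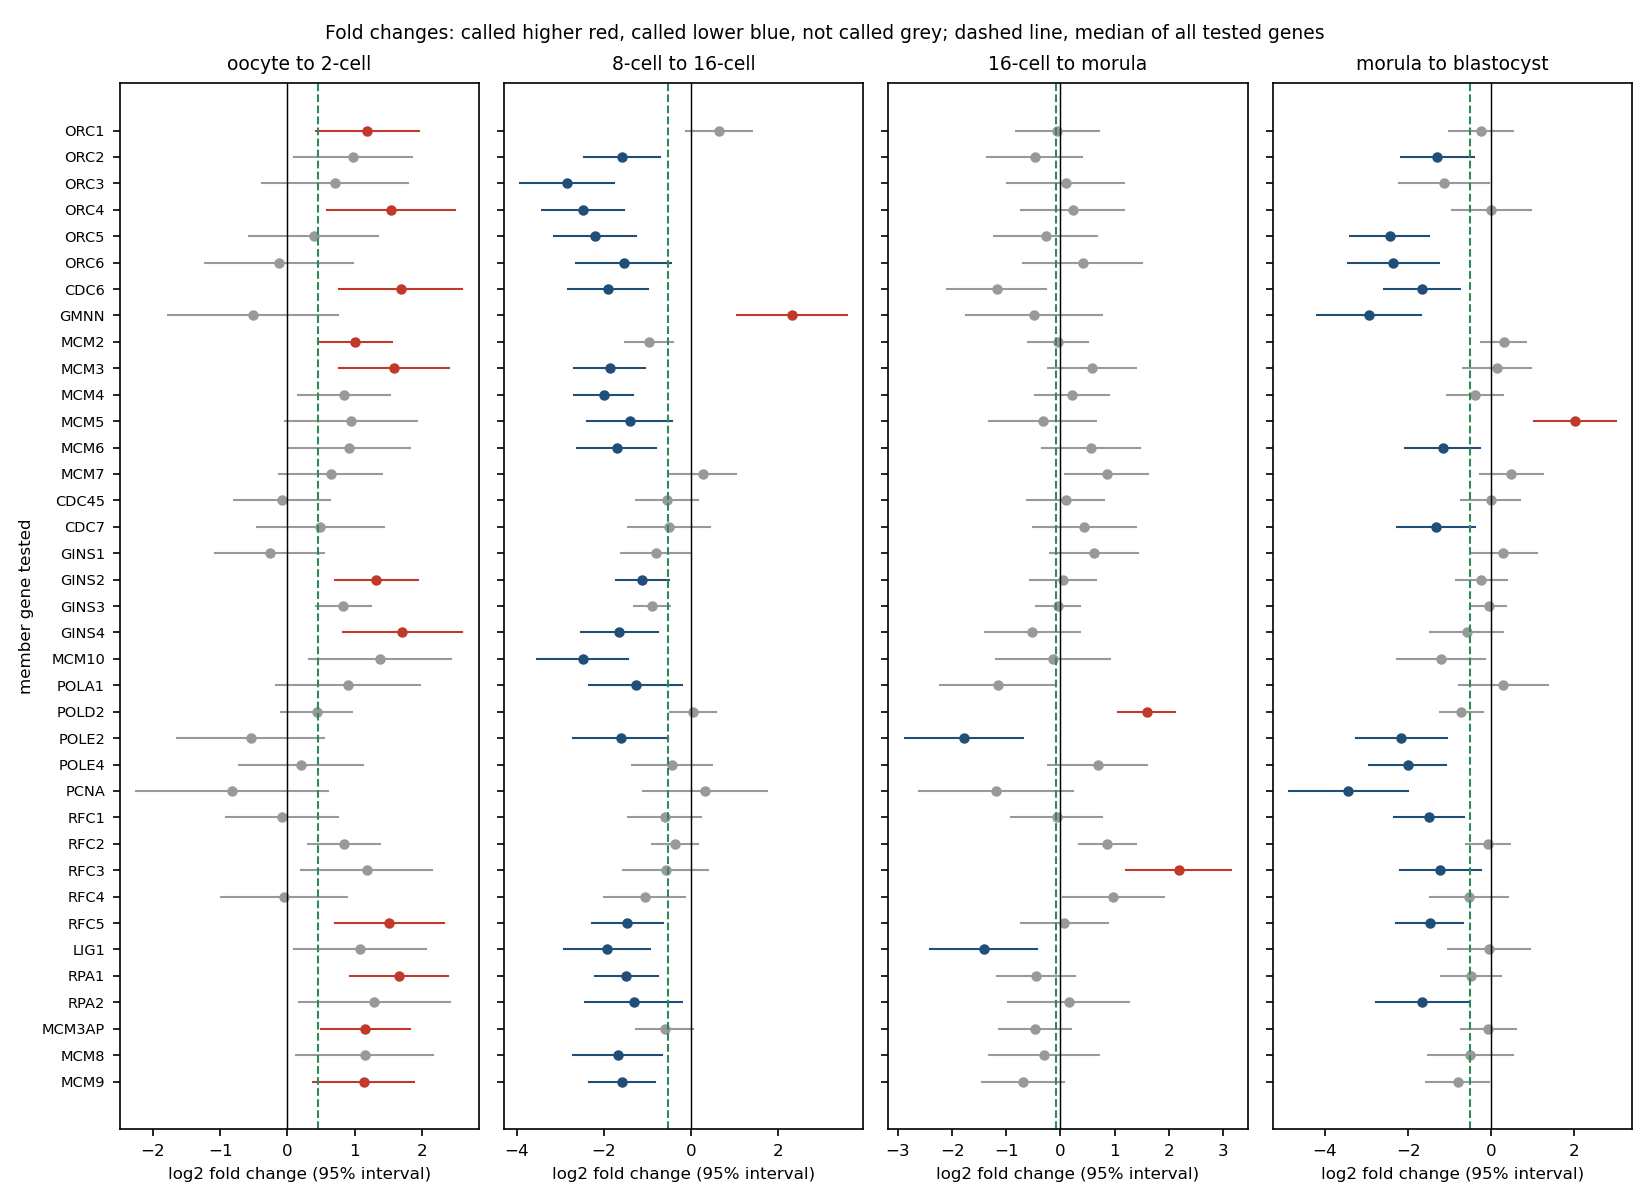
Points are log2 fold changes and bars their 95% intervals for the 37 members tested, in 4 of the stage comparisons. Red marks members called higher, blue those called lower and grey those not called. The dashed line is the median of all tested genes, at 0.46, -0.52, -0.09 and -0.50 from left to right.

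From oocyte to 2-cell, 11 of the 37 members were called higher and 0 lower (21 had an unadjusted p below 0.05, as did 3448 of the 10384 genes tested), where 14% of all tested genes were higher and 0.482% lower. The median gene moved by 0.46 in this comparison, and the members by 0.91. RPA1 went from 2.43, 2.94 and 0.832 RPM to 10.3, 6.12 and 8.72 RPM (1.66, adjusted p = 0.00308) and was the 1 member still called with median-ratio scaling, which put the median gene at 0. RPA1 and CDC6 were called with quantile normalization. GINS4, GINS2, MCM3, ORC4 and RFC5 also rose with the authors' scaling, by 1.71, 1.32, 1.59, 1.54 and 1.51. GINS2 passed the filter through no oocyte library and adds nothing to the count of rises as support. The count fell to 2 without oocyte C and to 5 without 2-cell C. POLE2, PCNA and GMNN were lower in every 2-cell library than in every oocyte, as were 4.33% of all tested genes, by -0.54, -0.82 and -0.51, and were not called (adjusted p of 0.445 to 0.628).

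Between the 2-cell and 4-cell stages 0 of 37 members were called in limma, where 0 of all tested genes were (0% in either direction), and 3 members had an unadjusted p below 0.05, as did 326 of the 10384 genes. Between the 4-cell and 8-cell stages 0 members were called against 0.289% of all tested genes higher and 0.0963% lower (0.385% in either direction), and 5 had an unadjusted p below 0.05, as did 1000 of the 10384 genes. With array weights 4 were called higher and 1 lower at that step. The share of all tested genes called with array weights is not given here, so these calls are not set against it.

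At the 16-cell to morula step 2 members were higher (POLD2 and RFC3, 5.41% of those tested) and 2 lower (POLE2 and LIG1), beside 9.44% and 7.59% of all tested genes. POLD2 passed the filter through late stages alone and adds nothing to this count as support. Without 16-cell C no member was called lower, and without morula C 5 were. From morula to blastocyst 1 member was higher (MCM5) and 14 were lower, or 37.8%, where 7.74% of all tested genes were higher and 28.1% lower. The members' median was -0.59 and that of all genes -0.50. With median-ratio scaling 6 of the 14 remained lower (GMNN, ORC5, ORC6, PCNA, POLE2 and POLE4), and GINS1, MCM3 and MCM7 joined MCM5 as higher. Scaled to gene reads outside the mitochondrial genome, an alternative added after the mitochondrial share had been seen, 7 of the 14 were lower. The shares of all tested genes called under these scalings are not given here. Blastocyst B, which had the largest mitochondrial share, was the lowest of its stage in 13 of the 14 members, and without it 9 members were called lower. From oocyte to blastocyst, which shares libraries with the comparisons above, 20 members were lower and 3 higher (ORC1, MCM7 and POLD2), beside 36.6% and 20.8% of all tested genes, and POLD2 again counts for nothing there because of how it passed the filter.

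**Figure D5:**
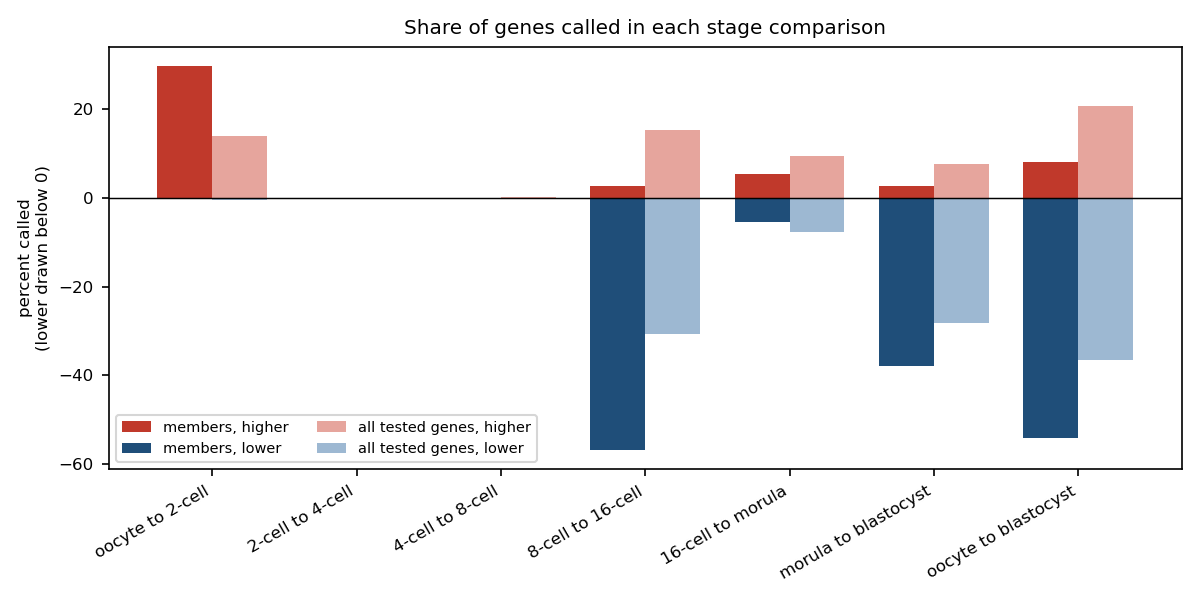
Bars give the percent of the 37 members tested and of all 10384 tested genes that were called in each stage comparison, higher above 0 and lower below 0. Members exceed all tested genes among the falls at the 8-cell to 16-cell step (56.8% against 30.7%) and among the rises from oocyte to 2-cell (29.7% against 14%).

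Other genes of the pathway were followed from 7 lists. Their counts are to be read against all tested genes, of which 15.4% rose and 30.7% fell at the 8-cell to 16-cell step and 7.74% rose and 28.1% fell from morula to blastocyst. Among origin activation genes, 3 of 11 tested rose (27.3%) and 3 fell (27.3%) at the 8-cell to 16-cell step, the falls near the 30.7% of all tested genes. The cyclin E genes that drive S phase entry led the rises, CCNE1 from 10.8 ± 3.1 to 154 ± 93.6 RPM (3.52, adjusted p = 1.03e-05) and CCNE2 from 3.19 ± 1.13 to 20.6 ± 8.56 RPM (2.30, adjusted p = 0.00028). The firing factors TICRR, from 14 ± 5.42 to 3.75 ± 1.44 RPM (-1.63), and DONSON, from 4.34 ± 1.49 to 0.944 ± 0.606 RPM (-1.48), fell. From morula to blastocyst 0 of these 11 rose and 6 fell, including CCNE2 to 0.879 ± 0.896 RPM (-2.59, adjusted p = 8.35e-05) and CCNE1 to 13.2 ± 5.46 RPM (-2.40, adjusted p = 0.000549). Fork protection and clamp genes fell in 7 of 11 (63.6%, against 30.7% of all tested genes) and rose in 1 at the 8-cell to 16-cell step. ATAD5, which unloads PCNA, went from 133 ± 8.19 to 26.4 ± 12.4 RPM (-2.40, adjusted p = 0.000276) and the nuclease gene DNA2 from 23.1 ± 9.46 to 4.25 ± 3.23 RPM (-2.32). The rise of RNASEH2C (1.43, adjusted p = 0.0136) was lost without 16-cell B (adjusted p = 0.143). At the morula to blastocyst step this list had 1 rise, RNASEH2A (1.07), whose fold change fell under the minimum size without morula C or blastocyst C, and 4 falls, led by TOP1 (-2.39) and CLSPN (-2.10), the latter not called with median-ratio scaling, quantile normalization, nuclear gene reads or array weights.

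In the E2F and retinoblastoma family 2 of 13 rose (15.4%) and 4 fell (30.8%) at the 8-cell to 16-cell step, the same shares as among all tested genes (15.4% and 30.7%). E2F3, an activator of replication genes, rose from 0.965 ± 0.475 to 9.53 ± 3.69 RPM (2.39, adjusted p = 2.89e-06). The repressor E2F6 went from 0.246 ± 0.209 to 2.77 ± 0.712 RPM (1.59, adjusted p = 1.85e-06). E2F6 passed the filter through 16-cell and morula libraries alone, so its rise is not used as support and adds nothing to the count. The repressor E2F8 fell from 18.7 ± 5.88 to 2.72 ± 2.04 RPM (-2.49, adjusted p = 4.08e-05) and the E2F partner TFDP2 from 28.9 ± 3.71 to 7.02 ± 7.99 RPM (-2.35). From morula to blastocyst 1 rose (7.69%) and 3 fell (23.1%), near the 7.74% and 28.1% of all tested genes, with RBL2, a retinoblastoma relative, up from 3.26 ± 2.37 to 14.2 ± 2.65 RPM (1.97, adjusted p = 0.000991) and LIN9 down (-2.13). Deoxynucleotide supply genes rose in 1 (11.1%) and fell in 4 (44.4%) of 9 at the earlier step, where 15.4% and 30.7% of all tested genes did. The thymidylate kinase gene DTYMK went up from 0.388 ± 0.0115 to 4.2 ± 0.455 RPM (1.90) and CTPS1 down (-1.89). DTYMK passed the filter through no 8-cell library, so its rise is not used as support. The fall of RRM2B (-2.16, adjusted p = 0.0122) was lost without 16-cell A (adjusted p = 0.0741). At the later step 1 rose and 3 fell (11.1% and 33.3%), near the 7.74% and 28.1% of all tested genes. SAMHD1, which breaks down deoxynucleotides, rose from 3.7 ± 3.54 to 15.8 ± 6.78 RPM (2.01, adjusted p = 0.000903), and CTPS1 fell (-1.67). The fall of DCK (-1.42, adjusted p = 0.0325) was lost without morula B or blastocyst B (adjusted p up to 0.247) and with each other scaling.

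Of 7 licensing turnover genes, 1 rose, 3 fell (42.9%, against 30.7% of all tested genes) and 3 were not called at the 8-cell to 16-cell step. DTL, the adaptor that marks CDT1 for destruction on PCNA, went from 78.7 ± 11.3 to 29.9 ± 2.92 RPM (-1.36, adjusted p = 0.012, 0.071 with median-ratio scaling). The ubiquitin ligase scaffold CUL4A fell (-1.49), and the rise of its relative CUL4B (1.06, adjusted p = 0.037) was lost without 8-cell A, B or C or one of 16-cell A and B (adjusted p up to 0.122). At the morula to blastocyst step 4 of the 7 fell, among them FBXO5, which holds the anaphase-promoting complex in check, from 306 ± 219 to 36.6 ± 20.7 RPM (-2.99, adjusted p = 8.33e-05), and DTL again (-2.32). Checkpoint genes fell in 3 of 8 (37.5%) at each of these steps, near the 30.7% and 28.1% of all tested genes, and the other 5 were not called. The kinase gene ATR went from 11.4 ± 4.67 to 1.02 ± 0.509 RPM at the 8-cell to 16-cell step (-2.56, adjusted p = 1.89e-05), RAD17 from 106 ± 9.95 to 30.5 ± 16.8 RPM (-1.94), and CHEK1 from 122 ± 36.8 to 15.6 ± 11.6 RPM from morula to blastocyst (-3.10, adjusted p = 7.22e-06). Replication-coupled chromatin assembly genes fell in 2 of 6 (33.3%, near the 30.7% of all tested genes) at the 8-cell to 16-cell step, UHRF1 from 72.3 ± 20.4 to 17.3 ± 14.1 RPM (-2.23) and the histone mRNA factor SLBP from 168 ± 28.2 to 63.8 ± 24.6 RPM (-1.46, not called with median-ratio scaling), and 0 of 6 were called from morula to blastocyst.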

How the data were processed

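RNA of 21 libraries was sequenced, and the authors deposited a single table of RPKM values, with a column for each library. The submitters' processing notes name FastQC, STAR 2.5.3a and Partek without saying what each did. The build, the counting rule and strandedness: not given in the sources used here. The deposited RPKM values carry an offset of 0.01. After removing it and multiplying by the gene span, 95.2 to 97.4% of the 3000 lowest values in each library lay within 0.05 of a whole number of reads. RPM was derived this way, because division by introns puts long genes under any minimum. On the deposited scale 22 members would have been tested.

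Genes with at least 1 RPM in 3 libraries were fitted on log2(RPM + 1) with limma 3.58.1 (trend, robust; R 4.3.3), as 1 model over 7 stages. Tests were two-sided, with Benjamini-Hochberg adjustment over all 10384 genes. The fit was also run on simulated data without differences in scaling between libraries, so that run says nothing about the alternative scalings. The naming rule asked for per-library values of members called in a consecutive comparison (at most 25, by size), of each complex's highest member and of 2 or 3 uncalled members, and for up to 2 rises and 2 falls of each other list. The members and lists were chosen with earlier results of these data known. The table held 12 of 13 origin activation, 12 of 15 fork, 10 of 12 deoxynucleotide, 7 of 10 chromatin, 15 of 15 E2F, 7 of 10 turnover and 9 of 10 checkpoint symbols. Tables and figures were made in Python 3.11.15 (pandas 2.3.3, numpy 2.4.6, matplotlib 3.10.9).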

Additional observations from a re-analysis of the deposited data

How the results depend on the processing

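The settings named above beside single calls are not always the full list of those that lost the call. Of 75 calls of members over the 7 comparisons, 23 held in each alternative that tested them and none changed sign. Of the 23, 19 were tested in all alternatives and 4 (MCM4 and MCM8 at the 8-cell to 16-cell step, MCM5 from morula to blastocyst, ORC1 from oocyte to blastocyst) were not tested on deposited RPKM. Median-ratio scaling lost 32, quantile normalization 28, scaling to nuclear gene reads (added after seeing the data) 22 and to all gene reads 14. Members called higher from oocyte to 2-cell, 11 with the authors' scaling, numbered 2 on deposited RPKM, 6 with a pseudocount of 5, 1 with median-ratio scaling, 2 with quantile normalization and 2 to 13 when a library was left out. From 4-cell to 8-cell array weights gave 4 higher and 1 lower against 0. At the 8-cell to 16-cell step median-ratio scaling and quantile normalization gave 2 higher against 1, and deposited RPKM gave 8 lower against 21. From 16-cell to morula, with 2 in each direction, 1 was higher on deposited RPKM, with a pseudocount of 5 and with a filter of 5 RPM, and 1 was lower on deposited RPKM, with a pseudocount of 5 and with no filter, 4 with median-ratio scaling and 0 to 5 when a library was left out. From morula to blastocyst, with 1 higher and 14 lower, deposited RPKM gave 0 and 4, nuclear gene reads 3 and 7, median-ratio scaling 4 and 6, quantile normalization 3 and 6, array weights 5 lower, and leaving out a library 9 to 16 lower. From oocyte to blastocyst, with 3 and 20, deposited RPKM gave 0 and 9, nuclear gene reads 7 and 12, median-ratio scaling 5 and 13, quantile normalization 5 and 13, and a pseudocount of 5 gave 12 lower. Member counts under alternative settings, here and above, are given without the share of all tested genes called under the same setting. They do not show whether the members changed relative to all genes. On deposited RPKM and with a filter of 5 RPM fewer members were tested. For the other settings the cause was not tested. With the letter as a replicate block the calls at the 8-cell to 16-cell step were 1 higher and 22 lower, and 1 of the 75 calls, RFC3 from morula to blastocyst, was lost. Deviations of same-lettered libraries in neighbouring stages correlated above 0.1 in 6 of 18 cases (-0.30 to 0.39), so the letters were not taken as pairs. CDT1, POLD1 and FEN1 were left out of the main fit by the minimum of 1 RPM in 3 libraries.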
